A study of Arabidopsis thaliana with 10 samples.

Results

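The GH3 hormone-conjugating enzymes are described here by 10 Arabidopsis thaliana genes, GH3.1, GH3.2, GH3.3, GH3.4, GH3.5, GH3.6, GH3.9, GH3.17, JAR1 and PBS3, out of 38303 genes in the deposited tables. The genes were chosen by locus identifier from a family of 20 genes that the tables or the lists used here name as GH3. Their FPKM values in the 5 groups of the study were known when these 10 were chosen, so the values below describe them and no test over them as a set is given. Whole seedlings of the accession Col-0 (Columbia-0), 12 days old and raised on a 16 h light and 8 h dark cycle at 23 °C, were sequenced as mRNA in 10 libraries, 2 for each of the 5 groups. In the hormone experiment wild-type seedlings received mock or 100 nM brassinolide (BL, the most active brassinosteroid) for 6 h; the sample titles call the mock group non-treatment. In the overexpression experiment untreated wild-type seedlings were set beside untreated seedlings of a BEH2-YFP line and a BZR1-YFP line in the Col-0 background, each driven by the constitutive 35S promoter, and the stated aim is to compare transcriptional regulation by these factors. The sources used here do not say whether each line is a single transformant. Since whole plants were extracted, fewer cells of a type and less RNA per cell cannot be told apart.

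GH3 proteins join hormones or their precursors to amino acids. GH3.1, GH3.2, GH3.3, GH3.4, GH3.5, GH3.6, GH3.9 and GH3.17 join indole-3-acetic acid, the main auxin, to amino acids, which lowers the pool of free auxin; several of their genes are induced by auxin itself and so form a negative feedback loop. JAR1 joins jasmonic acid to isoleucine and so makes the active jasmonate, and PBS3 joins isochorismate to glutamate in the synthesis of salicylic acid. BZR1 and BEH2 belong to the transcription factor family that acts at the end of the brassinosteroid pathway, and BZR1 is known to bind G-boxes and brassinosteroid response elements.

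The 10 genes lie on chromosomes 1, 2, 4 and 5. GH3.3 spans chr2:9863855-9866562 on the minus strand, GH3.5 spans chr4:13653579-13656285 on the plus strand, GH3.6 spans chr5:22130964-22133688 on the minus strand and GH3.2 spans chr4:17579618-17582022 on the plus strand. In the RefSeq annotation of TAIR10.1, the assembly that the deposited tables name, GH3.1, GH3.2, GH3.3, GH3.4, GH3.5 and GH3.6 have 3 exons each, GH3.9 and GH3.17 have 4, and JAR1 and PBS3 have 5. The closest pair in coding sequence was GH3.2 and GH3.4, with 90.9% identity over 1794 aligned bases. GH3.5 and GH3.6 were 84.1% identical over 1839 bases, and GH3.2 and GH3.3 81.4% identical over 1782 bases. Of the 31-base words of each transcript, 5.98% for GH3.2 and 6.29% for GH3.4 occurred more than once in the genome. This share was 0.814% for GH3.3, 0.516% for GH3.5 and 0.524% for GH3.6, and 0 for GH3.1, GH3.17, JAR1 and PBS3. Reads from such words could be split between copies, and the sources used here do not say how the authors assigned them. GH3.9 overlaps a long noncoding RNA gene, AT2G09955, on the other strand; the use of strand in counting is likewise not given, so reads of that pair cannot be told apart.

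The 300 bases before the annotated start of 4 genes are printed because these genes carry the changes described below: GH3.3 and GH3.5, which were called higher in the overexpression lines, GH3.6, the closest relative of GH3.5, and GH3.2, the member nearest to a call for higher with brassinolide. Sequences are from RefSeq TAIR10.1, written 5′ to 3′ on the strand of the gene. Capitals mark the auxin response element TGTCTC, its variant TGTCGG, the G-box CACGTG and the brassinosteroid response element searched as CGTGNG, each on both strands.
GH3.3, chr2:9866563-9866862, minus strand: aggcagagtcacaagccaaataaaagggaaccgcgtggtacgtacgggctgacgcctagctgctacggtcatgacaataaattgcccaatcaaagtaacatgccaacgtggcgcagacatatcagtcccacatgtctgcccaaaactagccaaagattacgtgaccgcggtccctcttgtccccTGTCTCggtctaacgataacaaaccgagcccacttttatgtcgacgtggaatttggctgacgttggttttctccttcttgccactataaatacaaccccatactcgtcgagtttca
GH3.5, chr4:13653279-13653578, plus strand: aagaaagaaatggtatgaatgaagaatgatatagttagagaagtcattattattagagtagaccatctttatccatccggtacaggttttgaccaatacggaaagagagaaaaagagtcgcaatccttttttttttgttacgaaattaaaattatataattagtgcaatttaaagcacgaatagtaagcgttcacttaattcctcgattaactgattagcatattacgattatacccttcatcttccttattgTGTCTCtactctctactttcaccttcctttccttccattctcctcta
GH3.6, chr5:22133689-22133988, minus strand: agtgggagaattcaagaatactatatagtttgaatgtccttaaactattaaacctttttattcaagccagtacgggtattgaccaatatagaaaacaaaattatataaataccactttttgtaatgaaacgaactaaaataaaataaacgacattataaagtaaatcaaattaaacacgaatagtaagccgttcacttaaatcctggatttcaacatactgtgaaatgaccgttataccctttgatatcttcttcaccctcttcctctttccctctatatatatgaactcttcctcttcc
GH3.2, chr4:17579318-17579617, plus strand: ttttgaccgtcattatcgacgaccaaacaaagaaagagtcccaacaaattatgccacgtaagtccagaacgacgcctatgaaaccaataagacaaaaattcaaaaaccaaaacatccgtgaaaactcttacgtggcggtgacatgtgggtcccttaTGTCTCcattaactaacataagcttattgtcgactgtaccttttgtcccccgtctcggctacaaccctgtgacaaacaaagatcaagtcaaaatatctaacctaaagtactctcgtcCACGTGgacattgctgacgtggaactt

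In these windows GH3.3 held 1 auxin response element, at positions -116 to -111 counted from its start, and GH3.5 held 1, at -47 to -42. GH3.2 held 1 auxin response element, at -144 to -139, and a G-box at -27 to -22. GH3.6 held none of the searched motifs there. Of 27443 nuclear protein-coding genes, 13% held the auxin response element in a window of the same length, 4.91% its variant, 7.09% the G-box and 14.2% the brassinosteroid response element. Over 1000 bases the auxin response element occurred in 7 of the 10 genes and in 39.6% of all genes. In that longer window the brassinosteroid response element occurred in PBS3 alone among the 10, against 38.2% of all genes, and the G-box in GH3.2 alone, against 14.8%. The wider E-box CANNTG, which contains the G-box, occurred in all 10 genes and in 96.2% of all genes. The G-box and the brassinosteroid response element can overlap, since both contain CGTG. A match is a run of letters and was not tested as a binding site.

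**Figure D1:**
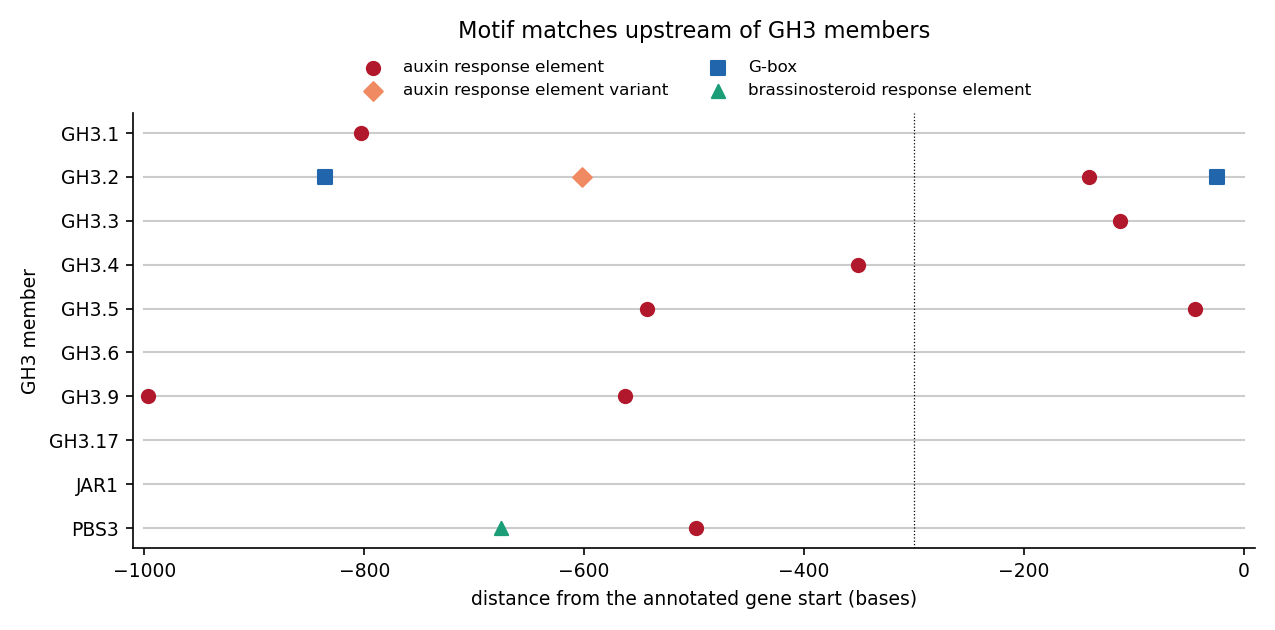
Positions of motif matches in the 1000 bases before the annotated start of each of the 10 genes (x axis, distance in bases; y axis, gene; symbols, motif, with E-boxes not drawn; the dotted line marks 300 bases). GH3.2, GH3.3 and GH3.5 have an auxin response element between the dotted line and the start, and GH3.6, GH3.17 and JAR1 have no symbol.

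The deposited tables give 1 FPKM value (fragments scaled to transcript length and library size) per gene and group, pooled by the authors over 2 libraries. The depth of each library is unknown, no spread between replicates can be shown, and the labels call the libraries biological replicates without saying more of their origin, so the p-values measure the spread between these libraries. The labelled tissue was checked by 3 shoot and 3 root hair markers, which were above 0 in every group: PRP3, a root hair wall protein, ranged from 10.5 to 34.6 FPKM, and RBCS1A, a subunit of Rubisco, from 6534 to 9080 FPKM. The 3 root hair markers summed to 46.8 FPKM in mock and 19.9 with brassinolide, and to 31.7 in untreated Col-0, 15.7 in BEH2-YFP and 23.0 in BZR1-YFP; each of the 3 was lower with brassinolide than in mock and lower in both lines than in Col-0, and their part in the GH3 values was not tested. The BEH2 transcript was 96.0-fold higher in the BEH2-YFP line than in Col-0, and the BZR1 transcript 91.9-fold higher in the BZR1-YFP line. The 2 wild-type controls differ: of 19674 genes with at least 1 FPKM in both, 12.5% were at least 2-fold apart, and LHCB2.1, a light-harvesting gene, stood at 28.4 FPKM in mock and 2302 in untreated seedlings. The experiments were analysed in separate Cuffdiff runs, so levels set across them have no test.

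JAR1 had the highest level of the 10 genes in 4 groups and was second to GH3.3 in BEH2-YFP. It stood at 48.9 FPKM in mock, 49.9 with brassinolide, 38.5 in untreated Col-0, 41.2 in BEH2-YFP and 39.1 in BZR1-YFP. GH3.4 was listed at 0 FPKM in all 5 groups and was not tested in any comparison. GH3.1 lay between 0.336 and 0.913 FPKM. The other auxin-conjugating genes lay between 0.945 and 32.1 FPKM, apart from GH3.3, which spanned 4.24 to 73.6 FPKM. PBS3 spanned 6.77 FPKM in BEH2-YFP to 17.0 FPKM with brassinolide.

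**Figure D2:**
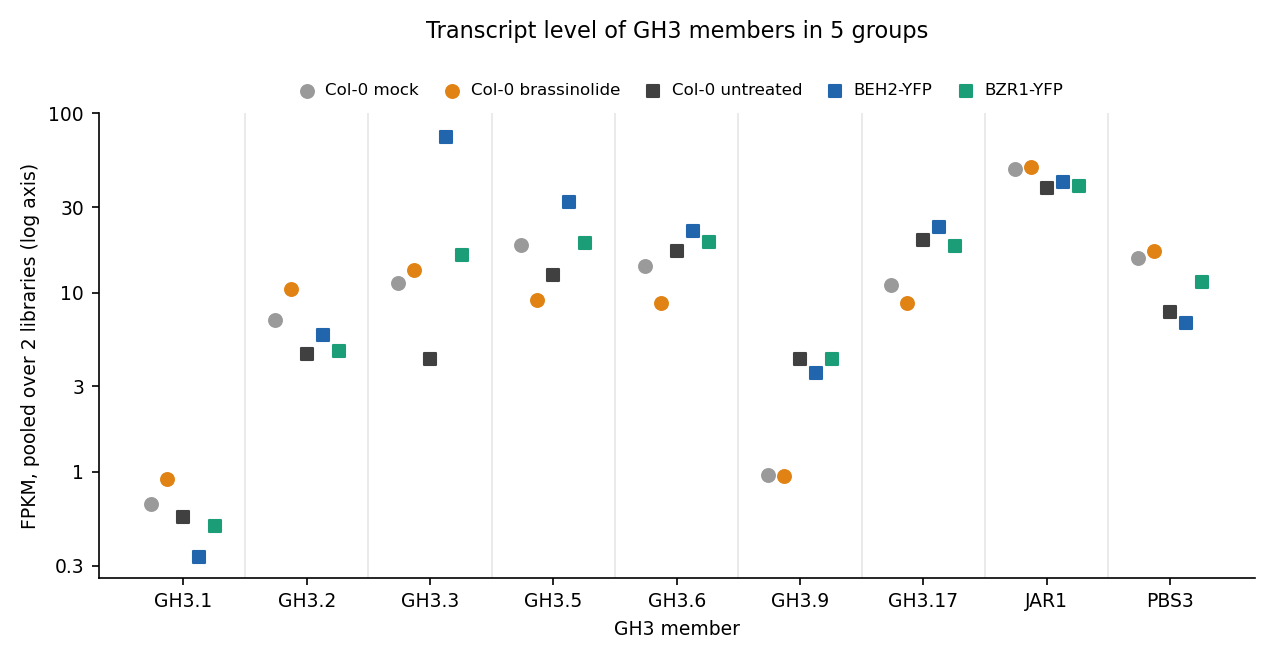
FPKM of 9 GH3 genes (x axis) in the 5 groups on a log axis, each point the authors' value pooled over 2 libraries; circles are the hormone experiment, squares the overexpression experiment, and GH3.4 is not drawn because it is listed at 0. GH3.3 ranges from 4.24 FPKM in untreated Col-0 to 73.6 in BEH2-YFP, while JAR1 stays between 38.5 and 49.9.

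The wild-type controls of the 2 experiments already held different levels of several members. GH3.3 stood at 11.3 FPKM in mock and 4.24 in untreated seedlings, 2.67-fold higher in mock. PBS3 was 1.99-fold higher in mock, at 15.6 against 7.84 FPKM. GH3.9, known for a role in root growth, was the other way round, at 0.966 FPKM in mock and 4.28 in untreated seedlings, and so was GH3.17, which prefers glutamate, at 11.0 and 19.8 FPKM. For GH3.3 the mock level therefore lay between those of untreated Col-0 and BZR1-YFP (16.1 FPKM).

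The first comparison, brassinolide against mock in wild-type seedlings, measures the response to the hormone. GH3.5 and GH3.6, the pair of close relatives, fell, and 0 of the 10 genes were called higher. GH3.5 (AT4G27260, WES1 in the files), which acts on auxin and has been linked to salicylic acid, measured 18.3 FPKM in mock seedlings against 9.09 with brassinolide, the lowest of its 5 levels. It fell 2.02-fold (log2 -1.01 ± 0.17, q = 0.00175 in the authors' deposited table). GH3.6 (AT5G54510, DFL1 in the files), named for the short hypocotyl of its overexpressor in light, measured 14.0 FPKM in mock seedlings against 8.76 with brassinolide. It fell 1.60-fold (log2 -0.67 ± 0.17, q = 0.00711 in the authors' deposited table), and both values lay below the 17.1 to 22.2 FPKM of the overexpression experiment. Each ± gives a standard error of the log2 change, worked back from Cuffdiff's deposited statistic and so resting on 2 libraries in each group. A gene is called at a deposited q-value under 0.05, and this background was 5.46% of 22864 tested genes in either direction, 3.01% higher and 2.45% lower. Of the 9 tested GH3 genes 2 were lower and 0 higher by Cuffdiff, with 2 and 1 at an unadjusted p under 0.05, and their median log2 change was 0.03 against 0.00 over all tested genes.

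GH3.2 (AT4G37390, BRU6 in the files), also known as YDK1, had the largest higher value without a call. It measured 6.99 FPKM in mock seedlings against 10.4 with brassinolide, a ratio of 1.49 (log2 0.57 ± 0.18, q = 0.0501 in the authors' deposited table), just outside the threshold. With genes under 1 FPKM in both groups left out and p-values adjusted again, its adjusted p from the authors' Cuffdiff p-values was 0.0464. GH3.3 stood at 11.3 and 13.3 FPKM (log2 0.23, 95% interval -0.11 to 0.58). GH3.17 stood at 11.0 and 8.78 FPKM (log2 -0.32, interval -0.67 to 0.02). JAR1 and PBS3 differed from mock by log2 0.03 (interval -0.27 to 0.33) and 0.13 (interval -0.21 to 0.46), and neither was called. GH3.1 and GH3.9, both under 1 FPKM in mock, were not called either.

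The second comparison sets BEH2-YFP seedlings against untreated Col-0. GH3.3 and GH3.5 rose, and 0 of the 10 genes were called lower. GH3.3 (AT2G23170), an auxin-conjugating enzyme whose gene is auxin-inducible, stood at 4.24 FPKM in Col-0 and 73.6 in BEH2-YFP. Its log2 change was 4.12 ± 0.21 (q = 0.00149 in the authors' deposited table), the 26th largest among 1644 genes called higher with both groups above 0. GH3.5 stood at 12.5 FPKM in Col-0 and 32.1 in BEH2-YFP, the highest of its 5 levels. It rose 2.56-fold (log2 1.36 ± 0.18, q = 0.00149 in the authors' deposited table). The background was 11.8% of 22729 tested genes, 7.31% higher and 4.53% lower. Of 9 tested GH3 genes 2 were higher and 0 lower by Cuffdiff, with 3 and 0 at an unadjusted p under 0.05, and their median log2 change was 0.23 against -0.01 over all tested genes.

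GH3.6, the relative of GH3.5, stood at 17.1 FPKM in Col-0 and 22.2 in BEH2-YFP and was not called (log2 0.37, 95% interval 0.02 to 0.73, q = 0.288 in the authors' deposited table). GH3.2, the relative of GH3.3, stood at 4.54 and 5.80 FPKM (log2 0.35, interval -0.08 to 0.78). GH3.17 stood at 19.8 and 23.1 FPKM (log2 0.23, interval -0.13 to 0.58). Those 3 values lay above Col-0 without a call, and those of GH3.1, GH3.9 and PBS3 below it, also without one. JAR1 had a log2 change of 0.10 (interval -0.25 to 0.44), and PBS3 stood at 7.84 and 6.77 FPKM (log2 -0.21, interval -0.63 to 0.21).

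The third comparison sets BZR1-YFP seedlings against untreated Col-0 and shares its Col-0 libraries with the comparison of BEH2-YFP. GH3.3 rose from 4.24 to 16.1 FPKM (log2 1.92 ± 0.21, q = 0.00149 in the authors' deposited table). GH3.5 rose from 12.5 to 18.9 FPKM, 1.51-fold (log2 0.59 ± 0.18, q = 0.0264 in the authors' deposited table). That call of GH3.5 ended when genes under 1 FPKM were left out and the Cuffdiff p-values adjusted again within this table (adjusted p = 0.116). The deposited q-values here were not adjusted within 1 table. The filter and the new adjustment were not set apart, so the loss cannot be credited to the filter. The background was 1.62% of 22605 tested genes, 1.15% higher and 0.478% lower. Of 9 tested GH3 genes 2 were higher and 0 lower by Cuffdiff, with 3 and 0 at an unadjusted p under 0.05, and the median log2 change was 0.05 against 0.00 over all tested genes. PBS3 was the member with an unadjusted p under 0.05 and no call: it stood at 7.84 FPKM in Col-0 and 11.4 in BZR1-YFP (log2 0.54 ± 0.21, q = 0.112 in the authors' deposited table). GH3.6 had a log2 change of 0.16 (95% interval -0.19 to 0.52), GH3.2 of 0.05 (interval -0.39 to 0.50) and JAR1 of 0.02 (interval -0.33 to 0.37).

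**Figure D3:**
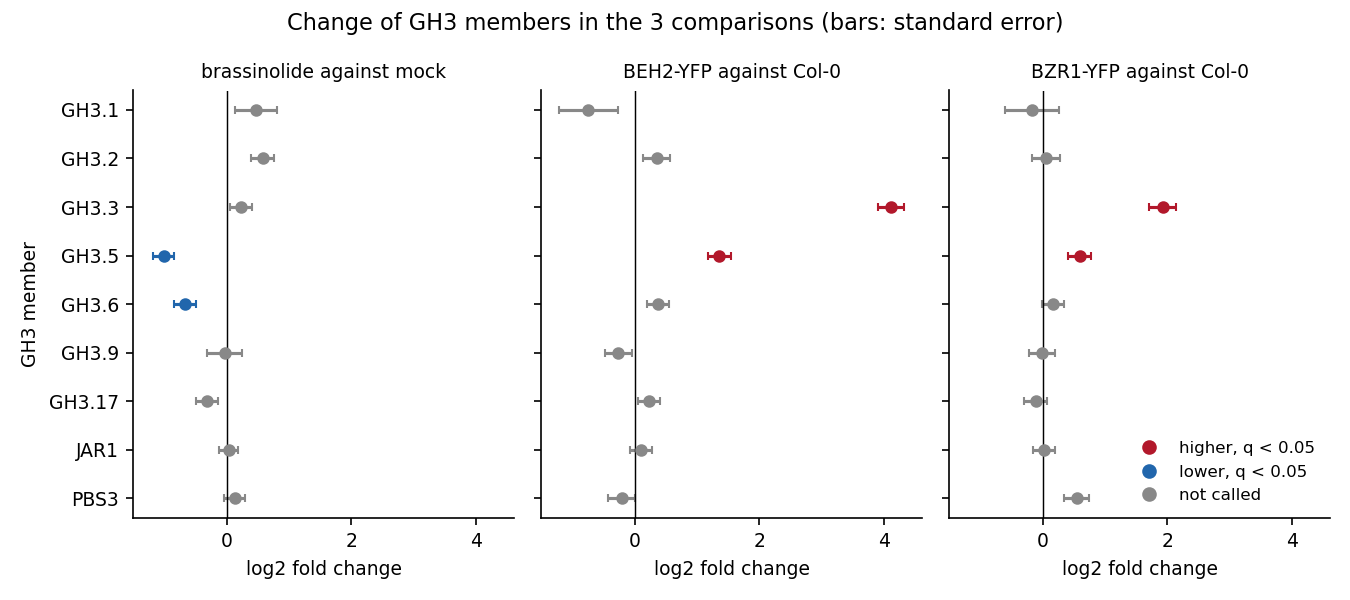
Deposited log2 fold changes of the 9 tested GH3 genes in the 3 comparisons (x axis, log2; y axis, gene); bars are 1 standard error derived from the Cuffdiff statistic, red and blue mark genes called higher and lower at a q-value under 0.05, and grey the rest. GH3.5 is at -1.01 with brassinolide and at 1.36 and 0.59 in the lines, and GH3.3 is at 0.23, 4.12 and 1.92.

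The 2 lines were compared through the difference of their log2 changes, using the derived standard errors in a normal test (two-sided, Benjamini-Hochberg adjustment over 22336 genes). By this test 3.59% of genes differed, 2.31% with the higher value in BEH2-YFP. GH3.3 was 4.57-fold higher in BEH2-YFP than in BZR1-YFP (log2 difference 2.19 ± 0.30, 95% interval 1.60 to 2.78). Its adjusted p from these values of Cuffdiff was 1.15e-10. The smallest p-value that Cuffdiff gave in either line was 5e-05. The adjusted p of GH3.3 therefore extends the normal curve beyond the deposited p-values, and its size is not read as strength of evidence. For GH3.5 the difference was 0.77 ± 0.26 (interval 0.26 to 1.27), with an adjusted p of 0.0713 from Cuffdiff's values. For PBS3 it was -0.76 ± 0.30 (interval -1.34 to -0.17), with an adjusted p of 0.188 from Cuffdiff's values. The shared Col-0 libraries are counted in both standard errors. With the variance of the difference cut to 0.5 of its size for this sharing, GH3.5 and PBS3 were called as well, with adjusted p of 0.000627 and 0.00567 from Cuffdiff's values. The interval of the difference included 0 for GH3.1, GH3.2, GH3.6, GH3.9, GH3.17 and JAR1; for JAR1 it ran from -0.41 to 0.57.

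The summed level of the 8 auxin-conjugating genes shows how much of it each gene made up, since FPKM is scaled by length. The sum was 63.2 FPKM in mock and 52.2 with brassinolide, and 63.1 in untreated Col-0, 161 in BEH2-YFP and 81.9 in BZR1-YFP. GH3.3 made up 6.73% of the sum in untreated Col-0, 45.8% in BEH2-YFP and 19.7% in BZR1-YFP. It made up 17.9% in mock and 25.5% with brassinolide. Without GH3.3 the sums were 58.8 FPKM in untreated Col-0, 87.1 in BEH2-YFP and 65.8 in BZR1-YFP, and 51.9 and 38.9 FPKM in mock and brassinolide. GH3.17 held the largest share in untreated Col-0 (31.3%) and GH3.5 in mock (29.0%). The sums have no error, since each is built from pooled values.

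**Figure D4:**
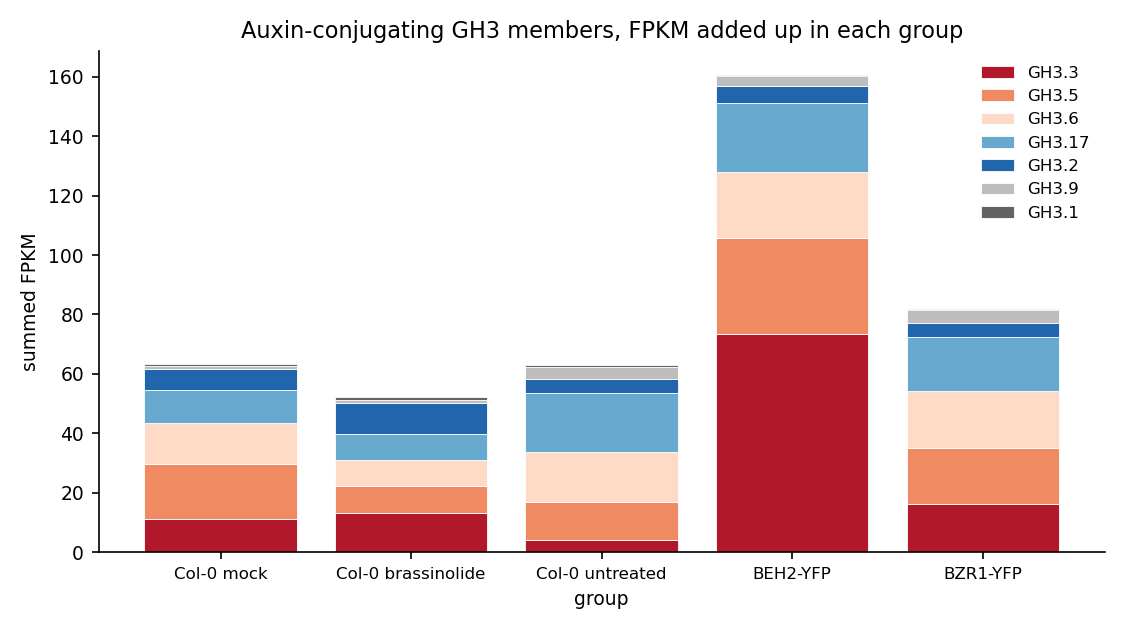
FPKM of the auxin-conjugating GH3 genes stacked in each group (x axis, group; y axis, summed FPKM; each colour a gene; GH3.4, listed at 0, adds nothing). The BEH2-YFP bar reaches 161 FPKM, of which GH3.3 is 73.6, against 63.1 and 4.24 in untreated Col-0.

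Other genes of the family stood beside these. Called counts of this and the following lists are to be read beside the shares of all tested genes called. Those were 5.46% with brassinolide, 11.8% in BEH2-YFP and 1.62% in BZR1-YFP. No list was tested as a set, and a single call in a short list is not read as a result about that list. The lists were chosen with earlier results of these data known. A called share above that of all tested genes is therefore not read as a result about a list either. Of 9 further GH3 genes, 7 were tested in BEH2-YFP and 3 rose, with a median log2 change of 0.93: GH3.15, which acts on indole-3-butyric acid, from 6.91 to 14.9 FPKM, GH3.14 1.90-fold from 6.85 FPKM and GH3.10, also called DFL2, from 20.2 to 42.9 FPKM. In BZR1-YFP 0 of 6 tested genes of this list were called by Cuffdiff (2 at an unadjusted p under 0.05), where GH3.15 stood at 8.17 FPKM and GH3.10 at 24.9 FPKM. With brassinolide 0 of 4 tested were called by Cuffdiff (2 at an unadjusted p under 0.05). The family of 20 also holds AT1G48690, which is neither a member nor in this list, so the median of 0.93 leaves it out. It was tested in all 3 comparisons and not called. Its log2 change was 0.57 with brassinolide, -0.17 in BEH2-YFP and 0.22 in BZR1-YFP. GH3.14 and GH3.15 are neighbours in a row of GH3 genes on chromosome 5, and the sharing of reads between them was not analysed.

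Genes of the hydrolase family that frees auxin from its conjugates were also changed in BEH2-YFP. Of 6 tested hydrolases 3 were called higher and 0 lower, beside 7.31% and 4.53% of all tested genes. Their median log2 change was 0.48. ILL6 rose from 5.32 to 21.0 FPKM, IAR3 from 25.7 to 51.1 FPKM and ILR1 from 9.99 to 14.9 FPKM. ILL6 also rose with brassinolide, from 5.27 to 11.8 FPKM, the 1 call of 6 tested. In BZR1-YFP 0 of the 6 were called by Cuffdiff (2 at an unadjusted p under 0.05). IAR3 and ILL6 are known to cleave jasmonoyl-isoleucine, the product of JAR1, so a rise of either need not mean more release of auxin. Of 4 tested genes of other auxin inactivation, IAMT1, an auxin methyltransferase, rose in BEH2-YFP from 3.92 to 6.58 FPKM, and 0 were called by Cuffdiff with brassinolide or in BZR1-YFP (0 in each at an unadjusted p under 0.05).

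Auxin synthesis, auxin response factors and early auxin response genes were counted beside the auxin-conjugating genes. Of all tested genes 5.46% were called with brassinolide, 11.8% in BEH2-YFP and 1.62% in BZR1-YFP. Of 9 tested synthesis genes 2 rose and 1 fell in BEH2-YFP: the flavin monooxygenase genes YUC2, from 1.59 to 3.59 FPKM, and YUC6, 1.60-fold to 5.10 FPKM, and the aminotransferase gene TAR2, from 8.09 to 4.99 FPKM. With brassinolide 1 of 10 rose, YUC3, from 1.46 to 4.75 FPKM, and in BZR1-YFP 0 of 9 were called by Cuffdiff (1 at an unadjusted p under 0.05). Of 5 auxin response factor genes, ARF8, a known activator of GH3 genes, fell with brassinolide from 15.8 to 9.47 FPKM and in BEH2-YFP from 20.5 to 12.7 FPKM. ARF6 fell with brassinolide from 28.6 to 18.8 FPKM. In BZR1-YFP 0 of these 5 were called by Cuffdiff (0 at an unadjusted p under 0.05). Of 9 early auxin response genes 3 rose and 2 fell with brassinolide, 1 rose and 1 fell in BEH2-YFP, and 1 rose in BZR1-YFP. At an unadjusted Cuffdiff p under 0.05, 3 were higher and 3 lower with brassinolide. The same counts were 1 and 2 in BEH2-YFP, and 5 and 0 in BZR1-YFP. IAA19, an auxin-inducible repressor, rose with brassinolide from 3.28 to 9.65 FPKM and in BZR1-YFP from 11.5 to 18.7 FPKM, and stood at 12.4 FPKM in BEH2-YFP without a call. Its call in BZR1-YFP ended under the filter of 1 FPKM with the Cuffdiff p-values adjusted again within that table (adjusted p = 0.0793). IAA3 rose with brassinolide from 9.35 to 18.9 FPKM and in BEH2-YFP from 23.2 to 38.9 FPKM. IAA29 fell with brassinolide, from 1.14 to 0.341 FPKM, and in BEH2-YFP, from 3.99 to 1.78 FPKM. In BZR1-YFP IAA29 stood above Col-0, at 6.17 FPKM, without a call (q = 0.215 in the authors' deposited table). LBD16, a factor of lateral root formation, fell with brassinolide from 2.48 to 1.01 FPKM. In the early auxin response list the median log2 change was 0.43 with brassinolide, 0.17 in BEH2-YFP and 0.58 in BZR1-YFP.

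Around JAR1, which was not called in any comparison, 4 genes that break down jasmonic acid or jasmonoyl-isoleucine rose in BEH2-YFP. The list they come from also holds JMT, a methyltransferase gene rather than a breakdown gene. Of 7 tested genes of the list 4 were called higher and 0 lower, beside 7.31% and 4.53% of all tested genes. The median log2 change of the list was 1.72. The called genes were the jasmonic acid oxidases JOX2, from 23.1 to 106 FPKM, JOX3, from 5.51 to 56.2 FPKM, and JOX4, from 0.426 to 4.30 FPKM, and the cytochrome P450 gene CYP94C1, from 2.11 to 6.95 FPKM. With brassinolide 2 of 6 rose, CYP94C1 from 8.93 to 13.3 FPKM and CYP94B1 from 3.96 to 7.27 FPKM, the latter named after its value was seen. In BZR1-YFP 1 of 7 was called, the methyltransferase gene JMT, which fell from 1.41 to 0.541 FPKM and was also named after its value was seen. At an unadjusted Cuffdiff p under 0.05, 3 genes of the list were higher in BZR1-YFP (JOX3, JOX4 and CYP94C1) and 1 lower (JMT). This call of JMT also ended under that filter and adjustment of the Cuffdiff p-values (adjusted p = 0.18). In BEH2-YFP JMT stood at 0.0243 FPKM against 1.41 in Col-0 (log2 -5.85), without a call (q = 0.813 in the authors' deposited table).

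PBS3, like JAR1, was not called in any comparison. The counts below stand beside 5.46% of all tested genes called with brassinolide, 11.8% in BEH2-YFP and 1.62% in BZR1-YFP. Of 6 genes of salicylate synthesis, SARD1, a transcription factor that activates the pathway, rose with brassinolide from 8.01 to 13.4 FPKM and in BEH2-YFP from 2.61 to 9.67 FPKM, and no other of the 6 was called in those comparisons. ICS2, an isochorismate synthase, fell in BZR1-YFP from 8.38 to 4.12 FPKM, the 1 call of 6. Of 5 tested genes of salicylate inactivation, UGT74F2, a glucosyltransferase, rose in BEH2-YFP from 32.2 to 56.1 FPKM. With brassinolide and in BZR1-YFP 0 of the 5 were called by Cuffdiff (1 in each at an unadjusted p under 0.05).

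**Figure D5:**
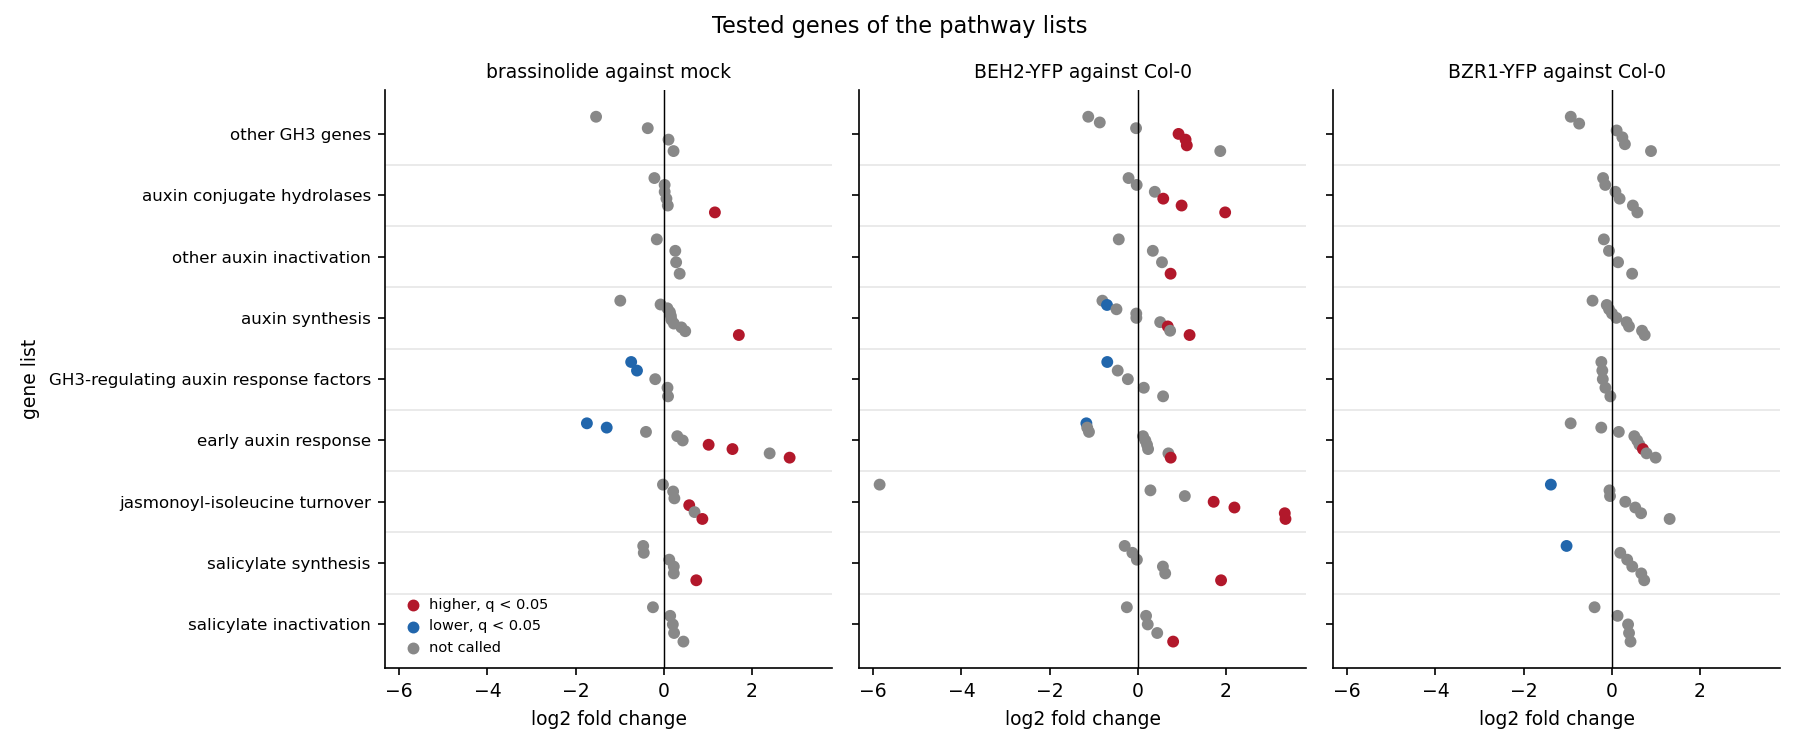
Deposited log2 fold changes of the tested genes of 9 pathway lists in the 3 comparisons (x axis, log2; y axis, list; each point a gene; colours as in the plot of changes of the GH3 genes; genes with a group at 0 are not drawn). Called genes number 12 of 55 tested with brassinolide (21.8%), 19 of 58 in BEH2-YFP (32.8%) and 3 of 57 in BZR1-YFP (5.26%), beside 5.46%, 11.8% and 1.62% of all tested genes, in the same order of the comparisons. The lists were chosen with earlier results of these data known, so the higher shares are not read as a result.

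The genes whose 3 log2 changes lay closest to those of GH3.3 were sought among 7496 genes with a symbol, tested in all 3 tables and at 5 FPKM or more in a group. By Euclidean distance over the 3 log2 changes the nearest was RLP21, a receptor-like protein, at 0.77, with log2 changes of -0.23 with brassinolide, 4.65 in BEH2-YFP and 2.24 in BZR1-YFP. XTH25, a xyloglucan-modifying enzyme, followed at 0.81, with 0.37, 3.46 and 1.48. BGLU45, a beta-glucosidase, MT1B, a metallothionein, and WRKY38, a transcription factor, each followed at 1.00. Unlike GH3.3, WRKY38 was called higher with brassinolide (log2 1.04, Cuffdiff q = 0.0243) and was not called in BZR1-YFP (log2 1.56, Cuffdiff q = 0.0541). With brassinolide MT1B stood at log2 -0.71 and BGLU45 at 0.59, both without a call. Of these 5 genes, 4 stood higher in mock than in untreated Col-0, as GH3.3 did: MT1B at 12.6 against 1.59 FPKM, RLP21 at 3.66 against 0.21 FPKM, XTH25 at 4.44 against 1.33 FPKM and WRKY38 at 1.75 against 0.53 FPKM. BGLU45 was the other way round, at 1.56 against 2.13 FPKM. The likeness rests on 3 values per gene, of which 2 share the Col-0 libraries. A low untreated level raises those 2 changes and also tends to place mock above it. The higher level in mock thus partly follows from how these genes were selected. How many of the 7496 genes stood higher in mock was not counted.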

How the data were processed

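Whole-seedling mRNA libraries were made with a stranded kit, per the labels' protocols. The submitters' processing notes name TopHat2 (version 2.0.13), the TAIR10 genome and Cuffdiff (version 2.2.0). The sources used here do not give the trimming, the annotation version or the use of strand. The authors deposited 3 tables with the FPKM of each group, pooled over 2 libraries, the log2 fold change without a pseudocount, the test statistic (a score of their Cuffdiff run), the p-value and the q-value. For every gene with both groups above 0, the deposited log2 change matched that of the FPKM ratio (tolerance 0.001), and the Col-0 values of both line tables were identical for 38303 genes. The q-values equal a Benjamini-Hochberg adjustment within the brassinolide table; in the line tables they differ from it by up to 0.235 and 0.600, so they were adjusted over other tests than 1 table.

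The members and lists were chosen with earlier results of these data known, and the named genes follow a rule on them: all 10 members, up to 4 called genes per list by smallest q-value, and the 5 genes nearest to GH3.3. The planned models per library (limma or a count model) were replaced by the authors' Cuffdiff calls, since the tables hold pooled values. Standard errors are the absolute log2 change over the absolute statistic and over a constant k, set so that the statistic times k gives, at the median, the normal quantile matching its p-value (1.43, 1.42 and 1.43 for brassinolide, BEH2-YFP and BZR1-YFP); intervals at 95% use them with a normal distribution. The difference test was run on simulated data whose errors were drawn independently from the same derived standard errors, without a shared control. That run therefore does not check those standard errors or the sharing of Col-0. The constant k was set on p-values between 0.0002 and 0.9, so smaller p-values of the difference test are extrapolated. In it 33% of log2 changes of 1 and 82% of log2 changes of 2 were called. Sequences came from RefSeq TAIR10.1; all 10 members matched by locus tag. Alternatives were other q-value thresholds, a filter of 1 FPKM, pseudocounts of 1 and 0.1 FPKM, median centring and a smaller standard error of the difference. Software was Biopython 1.88, matplotlib 3.10.9, SciPy 1.17.1, pandas 2.3.3, numpy 2.4.6 and Python 3.11.15.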

Additional observations from a re-analysis of the deposited data

Results flagged for a closer look

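GH3.3 differed between the lines by a test of the difference itself: its log2 change was 4.12 in BEH2-YFP and 1.92 in BZR1-YFP, a difference of 2.19. No explanation was tested.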

How the results depend on the processing

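The call of GH3.3 as higher in both lines held under every q-value threshold and under the filter of 1 FPKM. So did the calls of GH3.5 as higher in BEH2-YFP and as lower with brassinolide. All of these calls stood at Cuffdiff's smallest p-value, 5e-05, so none of the q-value thresholds could have ended them. That p-value was shared by 654 genes with brassinolide, 1390 in BEH2-YFP and 132 in BZR1-YFP. With brassinolide, the number of GH3 genes called higher went from 0 to 1 at a q-value under 0.1 and to 1 with the filter of 1 FPKM (GH3.2 in both), and the number called lower from 2 to 1 when a change of 2-fold or more was required beside a q-value under 0.1. In BZR1-YFP the number called higher went from 2 to 1 at a q-value under 0.01, under that 2-fold rule, and with the filter and a new adjustment within that table. With the control share removed, 3 GH3 genes differed between the lines in place of 1. At a q-value under 0.1, 6 pathway genes were called in BZR1-YFP in place of 3, and with the filter and new adjustment, an alternative chosen for the lists after seeing the data, 1 was (ICS2). No called log2 change reversed; with a pseudocount of 1 FPKM 3 of 27 moved by more than their standard error, among them GH3.3 to 3.83 in BEH2-YFP and 1.71 in BZR1-YFP. Leaving out single libraries was not run, because the tables pool them. No paired analysis was possible because the deposited values are pooled over the 2 libraries of each group. Depth is unknown, so no detection limit can be given for GH3.4.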
